A study of Mus musculus with 18 samples.

Results

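The genes described here are 40 germline and meiosis genes, chosen by name as genes with a known role in germ cells, meiosis or testis, out of 20233 mouse genes that the arrays measured. The choice was made with earlier results of these data known, so the share of these genes called is no test of the set. All 40 were on the arrays, and where a gene had several probe sets (the groups of probes that the array reads as 1 value) the one with the highest mean stood for it. They were followed through secondary reprogramming, in which doxycycline switches on copies of Oct4, Sox2, Klf4 and c-Myc that the fibroblasts already carry, and induced pluripotent stem cells (iPSC) form. The groups were fibroblasts of day 0, cells of days 1, 3, 5, 7, 11 and 15 of induction, cells of day 18 and an established iPSC line kept in the stem cell medium plus 2i, a pair of inhibitors against Gsk3 and Mek, with 2 arrays in each of the 9 groups. The fibroblasts came at passage 4 from E13.5 embryos made wholly of iPS cells by tetraploid complementation, and the genotype given for them is an Oct4-GFP reporter with Rosa26-M2rtTA, the transactivator that responds to doxycycline. Day 0 cells grew in a fibroblast medium with serum. The cells of days 1 to 15 had stem cell medium with LIF, 1 µg/ml of doxycycline and 50 µg/ml of vitamin C. Both additives were taken away after day 15, and the cells that remained were collected as day 18. No group kept the additives until day 18, so their removal, the later day and the loss of some cells cannot be told apart. 2i is named for the iPSC line alone, so in comparisons with iPSC the medium and the stable state cannot be told apart. The labels do not say whether the iPSC arrays came from cells with or without feeder cells.

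Germ cells are set aside early in the embryo as primordial germ cells, and later enter meiosis, in which homologous chromosomes pair, exchange DNA and separate. Pairing is held by the synaptonemal complex, a protein zipper built on a chromosome axis of meiotic cohesins, while piRNAs, small RNAs made in a cytoplasmic structure called nuage, keep transposons silent. In mouse somatic cells many of these genes are shut by DNA methylation of their promoters, and in embryonic stem cells a repressor complex that holds E2f6, Mga and Max acts on many of them.

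Levels are on the log2 scale of RMA, the method that made the deposited values, so a difference of 1 is 2-fold. A level under 5.31, the 95th percentile of 1065 olfactory receptor genes, is called under background here, and a difference whose lower level lay there is a lower bound. A gene was called where limma's adjusted p was under 0.05 and the difference in log2 level was 1 or more in size. Nothing in the labels says that the 2 arrays of a group came from separate cultures, so the p-values reflect only how far these arrays lay apart, which may be technical. The arrays of a group correlated over all genes at 0.997 to 0.998, except those of day 18, at 0.993. The day 18 arrays lay over 2-fold apart in 264 genes, against 5 to 16 genes in other groups, so the pooled SE is an underestimate for genes with a wider spread that day. Among the 40 genes, 3 differed by over 0.5 between the day 18 arrays (Sycp1, Stra8 and Rpl10l), 4 between the iPSC arrays (Sycp3, Syce1, Smc1b and Dmc1) and 2 between the day 15 arrays (Rpl10l and Dkkl1). The second array was the higher one for 32 of the 40 genes on day 18 and for 28 in iPSC. The median size of the gap between the arrays was 0.12 on day 18 and 0.26 in iPSC. Sex-linked transcripts also moved between the groups: the Y-linked gene Eif2s3y averaged 8.53 on day 18, against 3.99 on day 15, and the part of cell makeup in the results below was not tested. In bulk samples such as these, fewer cells of a type and less RNA per cell cannot be told apart.

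Most of the germline genes stayed low through induction and stood higher after it. Over background were 7 of the 40 genes on day 0, then 10, 13, 11, 12, 12 and 16 genes on days 1, 3, 5, 7, 11 and 15, then 31 genes on day 18 and 30 genes in the iPSC line. Of all genes, 67.2% to 69.7% were over background in every group. The median level of the 40 genes was 4.45 on day 0, 4.97 by day 15, 7.03 by day 18 and 6.40 in the iPSC line. Tdrd1, Tdrkh, Sycp2, Tex11, Spo11, Tex101 and Taf7l stayed under background in all groups. Compared with day 0, 31 genes were called higher and 0 lower on day 18, where 8.87% of all genes were called higher and 8.64% lower. In iPSC 28 were called higher than on day 0 and 0 lower, where 10.1% of all genes were called higher and 9.79% lower. From day 0 to day 15 most of the 40 genes lay under background, which left them little room to be called lower later. The first group in which a gene was called higher than on day 0 was day 7 for 1 gene, day 11 for 3 genes, day 15 for 5 genes and day 18 for 22 genes, and 9 were called in no group.

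**Figure D1:**
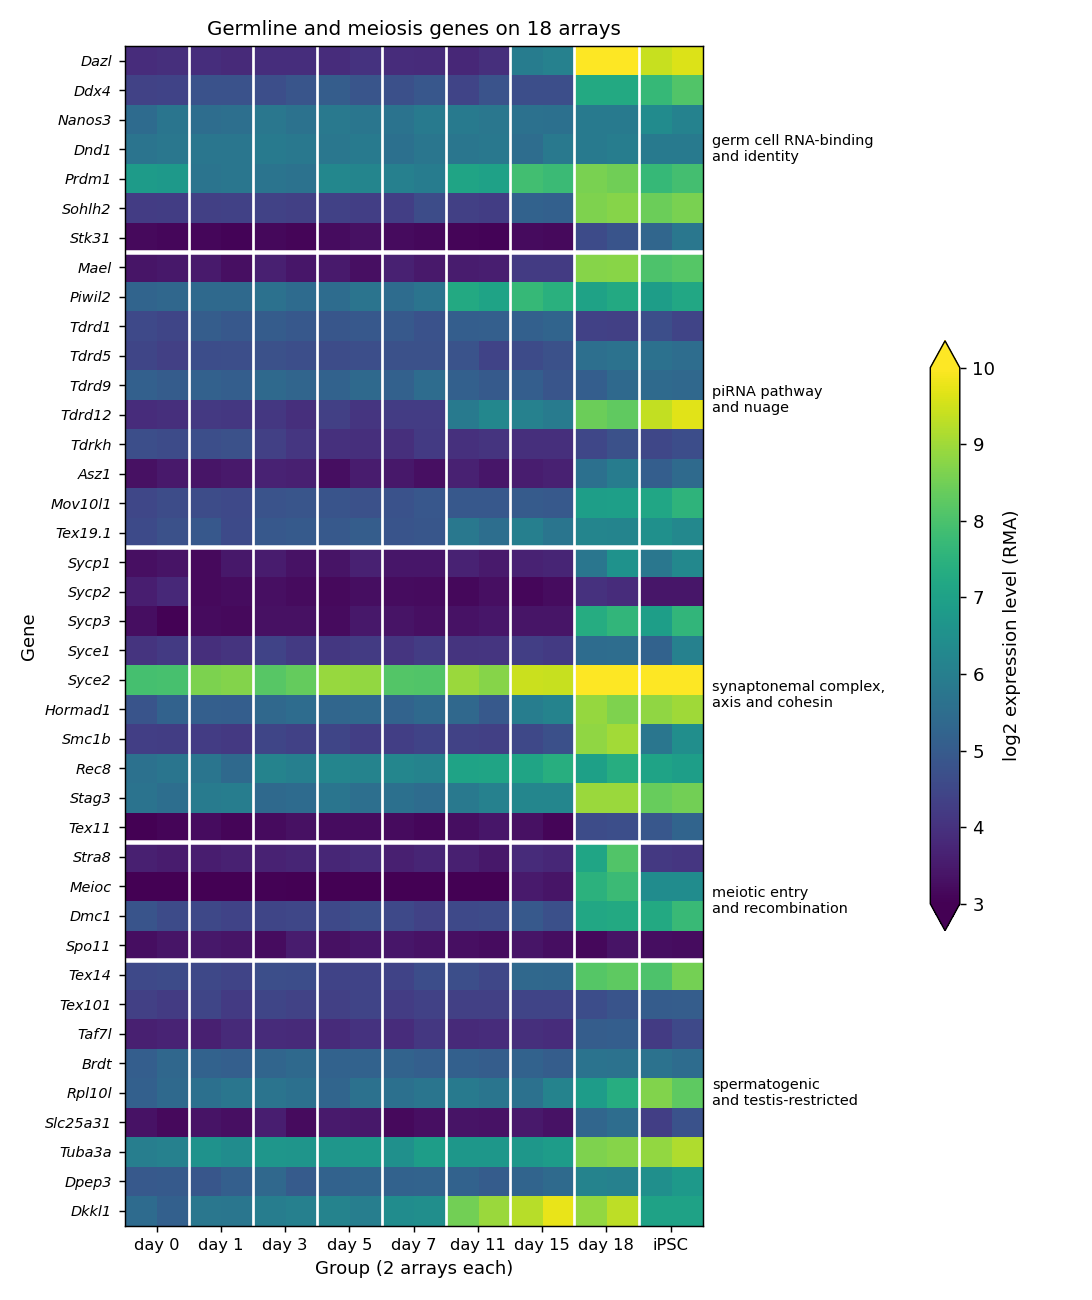
Log2 level (colour, RMA scale) of the 40 germline and meiosis genes, in rows ordered by role, on each of the 18 arrays, in columns from day 0 to iPSC. Most rows are dark through day 15 and bright on day 18 and in iPSC, where the median level was 7.03 and 6.40.

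The question of the induction course is how early any of these genes moved. With the additives present, few did before day 15. The counts of genes called higher than on day 0 were 0 on days 1, 3 and 5, 1 on day 7, 4 on day 11 and 9 on day 15, while 7.62%, 8.68%, 9.5%, 10.1%, 9.89% and 10% of all genes were called higher on those days. The share of the 40 genes on days 1 to 7 was thus under that of all genes. On day 11 it was near that of all genes, and on day 15 it was above it. At an unadjusted p under 0.05, without a limit on size or direction, 9, 12 and 14 of the 40 genes passed on days 1, 3 and 5, where 53.8%, 61.9% and 63.4% of all genes did. The gene called lower was Prdm1, with a difference of -1.10 on day 1 and -1.16 on day 3; of all genes 6.54% and 8.94% were called lower there. On days 5, 7, 11 and 15, 0 of the 40 were called lower, where 9.75%, 9.85%, 9.64% and 8.83% of all genes were. These shares are not alike, since 7 of the 40 genes were over background on day 0, against 67.7% of all genes. Most of the 40 thus had little room to be called lower. Prdm1 encodes Blimp1, a transcription factor of primordial germ cell specification that many somatic cells also use, and it averaged 5.72 on day 1 and 5.66 on day 3, against 6.82 on day 0.

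Dkkl1, which encodes a protein of the sperm acrosome, was the first to be called higher. It averaged 5.30, 6.42, 8.72 and 9.51 on days 0, 7, 11 and 15, and its difference from day 0 was 1.13 (SE 0.18, adjusted p = 5.97e-05) on day 7 and 3.42 (SE 0.18, adjusted p = 7.05e-10) on day 11. The day 7 call is lost without the second day 0 array, when 0 of the 40 genes are called. Piwil2, the PIWI protein Mili that binds piRNAs, had 7.25 and 7.05 on the day 11 arrays, against 5.26 and 5.33 on day 0. Its difference was 1.85 (SE 0.13, adjusted p = 1.24e-08), with no overlap between the arrays. Tdrd12, a Tudor-domain protein of piRNA production, had 5.88 and 6.24 on day 11, against 3.88 and 3.96 on day 0, and differed by 2.14 (SE 0.13, adjusted p = 4.02e-09). Rec8, the meiotic kleisin subunit of cohesin, had 7.05 and 7.09 on day 11, against 5.62 and 5.72 on day 0, and differed by 1.40 (SE 0.13, adjusted p = 4.4e-07). Piwil2 and Rec8 stood at 7.57 and 7.24 on day 15, and Tdrd12 at 6.08 and 5.91 on its arrays.

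By day 15 Dazl, Prdm1, Tex19.1, Syce2 and Hormad1 had joined them, with differences from day 0 of 2.10, 1.01, 1.20, 1.47 and 1.04. The calls of Prdm1 and Hormad1 depended on single arrays: Prdm1 differed by 0.98 without the second day 0 array and 0.96 without the first day 15 array, and Hormad1 by 0.84 without the first day 0 array and 0.96 without the second day 15 array. Dazl, an RNA-binding protein that promotes translation in germ cells, was the gene called between day 15 and day 11, where 1.66% of all genes were called higher and 0.247% lower. It had 5.95 and 6.07 on the day 15 arrays, against 3.79 and 3.94 on day 11, a difference of 2.15 (SE 0.12, adjusted p = 6.48e-08). Until day 11 the group means of Dazl had lain between 3.86 and 3.95, under background. A further 9 genes passed the adjusted p but not the limit on size. They were Hormad1 at 0.89, Sohlh2 at 0.87, Dkkl1 at 0.79, Prdm1 at 0.78, Tex14 at 0.76, Mael at 0.65, Meioc at 0.61, Syce2 at 0.58 and Piwil2 at 0.42. On the adjusted p alone 10 of the 40 genes and 16.2% of all genes passed.

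**Figure D2:**
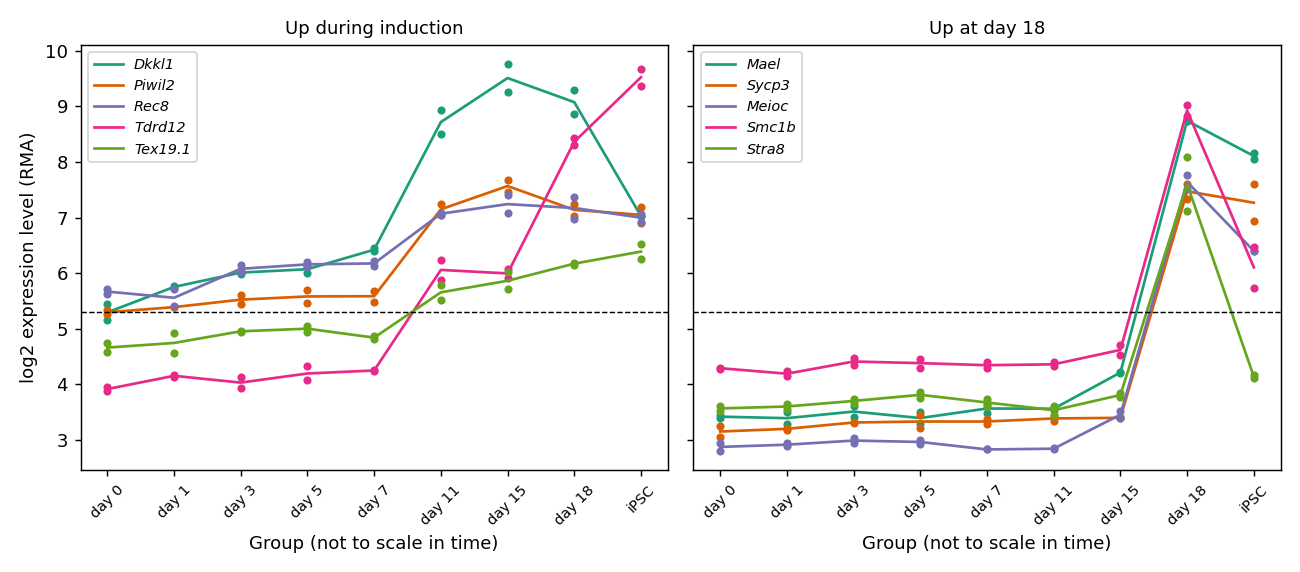
Log2 level by group from day 0 to iPSC for selected germline genes, with a point for each array, a line through the group means and a dashed line at background (5.31). Dkkl1, Piwil2, Rec8 and Tdrd12 stand higher by day 11, while Mael, Sycp3, Meioc, Smc1b and Stra8 are under background through day 15 and over it on day 18.

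Between day 15 and day 18, after doxycycline and vitamin C were removed, 23 of the 40 genes were called higher and 0 lower. Of all genes, 4.67% were called higher and 4.07% lower. The median difference of the 40 genes was 1.35, against -0.06 over all genes. The differences of the 23 genes ran from 1.17 to 4.53, and none of them overlapped between the arrays. For 16 of them the day 15 level was under background, so that the difference is a lower bound; the others were Dazl, Tdrd12, Hormad1, Stag3, Tex14, Rpl10l and Tuba3a. Stk31, Tex11 and Taf7l were called while under background on both days. Markers of other cell types moved over the same days. Of 12 fibroblast markers 9 were called higher on day 18, and their summed linear level was 4460 to 7300 on the day 18 arrays, against 1540 to 1570 on day 15. Of 12 pluripotent cell markers 9 were called higher and 1 lower, with sums of 22800 to 25500 on day 18, against 11400 to 11600 on day 15. Of 8 markers of stratified epithelium 7 were called lower, with sums of 975 to 1130 on day 18, against 5940 to 6330 on day 15. Of 15 markers of gonadal somatic cells 1 was called higher (Cyp11a1) and 1 lower (Cldn11), with sums of 1100 to 1280 on day 18, against 941 to 984 on day 15. Over background were 12 of the 15 on day 18, against 11 on day 15. The steroid-producing enzyme genes Cyp11a1 and Cyp17a1 averaged 7.04 and 5.52 on day 18, against 5.68 and 4.71 on day 15. Amh, Fshr and Hsd3b1, which mark Sertoli, granulosa and Leydig cells, were the only ones of the 15 not over background on day 18. Fshr and Hsd3b1 were not over it in any group. Others of the list, Wt1, Gata4, Inha, Nr5a1, Star, Insl3 and Foxl2, were over it in every group, the day 0 fibroblasts included. What part any of these cell types had in the germline values was not tested.

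Among the germ cell RNA-binding and identity genes, 4 of 7 rose, with a median difference of 1.52. Dazl stood at 10.00 and 10.46 on the day 18 arrays, against 5.95 and 6.07 on day 15, a difference of 4.22 (SE 0.12, adjusted p = 2.46e-11). Both day 18 arrays lay far above both day 15 arrays. Sohlh2, a helix-loop-helix factor of spermatogonial differentiation and of oocytes, had 8.66 and 8.74 on day 18, against 5.20 and 5.15 on day 15, and differed by 3.52 (SE 0.09, adjusted p = 7.67e-12). Ddx4, the RNA helicase Vasa of germ granules, had 7.25 and 7.26 on day 18, against 4.68 and 4.68 on day 15, and differed by 2.58 (SE 0.13, adjusted p = 3.71e-09). Its arrays were nearly equal within each day. Stk31, a Tudor-domain kinase-like protein of the testis, had 4.59 and 4.82 on day 18, against 3.19 and 3.17 on day 15, and differed by 1.52 (SE 0.12, adjusted p = 1.63e-07). Prdm1 had a difference of 0.70, under the limit on size, and Nanos3 and Dnd1, RNA-binding proteins that keep primordial germ cells alive, differed by 0.26 and 0.26.

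Of the 10 genes of the piRNA pathway and nuage, 4 rose, and their median difference was 0.80. Mael, a nuage protein needed for transposon silencing in the testis, differed by 4.53 (SE 0.10, adjusted p = 1.26e-12), a lower bound. It had 8.74 and 8.75 on the day 18 arrays, against 4.22 and 4.20 on day 15. Tdrd12 had 8.43 and 8.30 on day 18, against 6.08 and 5.91 on day 15, and differed by 2.37 (SE 0.13, adjusted p = 6.31e-09). Tdrd12 thus was higher than on day 0 by day 11 and higher again on day 18. Asz1, a scaffold protein that anchors nuage at mitochondria, had 5.58 and 5.93 on day 18, against 3.57 and 3.63 on day 15, and differed by 2.16 (SE 0.14, adjusted p = 2.56e-08). Mov10l1, the helicase that processes piRNA precursors, had 6.94 and 6.95 on day 18, against 5.00 and 4.96 on day 15, and differed by 1.96 (SE 0.11, adjusted p = 6.25e-09). The other 6 genes were not called. Piwil2 had 7.03 and 7.25 on day 18, against 7.68 and 7.45 on day 15, with both day 18 arrays under both day 15 arrays and a difference of -0.43. Tdrd1, under background on both days, had a difference of -0.86, and Tdrd5, Tdrkh, Tex19.1 and Tdrd9 had 0.94, 0.66, 0.31 and 0.27.

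The chromosome axis, cohesin and synaptonemal complex had 7 called genes of 10, with a median difference of 1.95. Smc1b, the meiotic SMC subunit of cohesin, had 8.83 and 9.02 on the day 18 arrays, against 4.53 and 4.71 on day 15, and differed by 4.31 (SE 0.17, adjusted p = 2.73e-10). Stag3, the meiotic STAG subunit of the same ring, had 8.95 and 8.96 on day 18, against 6.23 and 6.21 on day 15, and differed by 2.74 (SE 0.09, adjusted p = 8.09e-11). Rec8, their partner, had already reached its level by day 11 and differed by -0.07 between day 18 and day 15. Sycp3, of the lateral element, had 7.34 and 7.61 on day 18, against 3.41 and 3.39 on day 15, and differed by 4.08 (SE 0.16, adjusted p = 3.73e-10). Sycp1, the transverse filament that joins the axes, had 5.74 and 6.57 on day 18, against 3.68 and 3.73 on day 15, and differed by 2.45 (SE 0.21, adjusted p = 4.24e-07). The day 18 arrays lay apart for Sycp1, yet both were above both day 15 arrays. Hormad1, which marks unpaired axes, had 8.90 and 8.65 on day 18, against 5.97 and 6.13 on day 15, and differed by 2.73 (SE 0.15, adjusted p = 4.74e-09). Syce1, of the central element, had 5.49 and 5.51 on day 18, against 4.29 and 4.20 on day 15, and differed by 1.26 (SE 0.19, adjusted p = 7.54e-05). Tex11, an X-linked factor of crossing over, had 4.62 and 4.69 on day 18, against 3.33 and 3.09 on day 15, and differed by 1.44 (SE 0.11, adjusted p = 1.67e-07) below the background level. Syce2, a second central element protein that was well above background from day 0 on (7.95), differed by 0.75, and Sycp2, of the lateral element, differed by 0.77 while under background.

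Of the 4 genes of meiotic entry and recombination 3 rose, with a median difference of 3.09. Meioc, which keeps cells in meiotic prophase, had 7.51 and 7.78 on the day 18 arrays, against 3.52 and 3.39 on day 15, and differed by 4.19 (SE 0.09, adjusted p = 1.26e-12). Stra8, which retinoic acid induces at the entry into meiosis, had 7.11 and 8.10 on day 18, against 3.85 and 3.77 on day 15, and differed by 3.79 (SE 0.21, adjusted p = 5.68e-09). The day 18 arrays of Stra8 were the farthest apart of all 40 genes, by 0.98, and both lay far above day 15. Dmc1, the meiotic strand exchange recombinase, had 7.21 and 7.24 on day 18, against 4.96 and 4.70 on day 15, and differed by 2.39 (SE 0.14, adjusted p = 8.99e-09). Spo11, the enzyme that makes the DNA breaks on which Dmc1 acts, had 3.14 and 3.37 on day 18, against 3.39 and 3.26 on day 15, under background and with a difference of -0.06.

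Among the 9 other testis-restricted genes 5 rose, with a median difference of 1.17. Tex14, a protein of the bridges that join germ cells, had 8.16 and 8.27 on the day 18 arrays, against 5.37 and 5.34 on day 15, and differed by 2.86 (SE 0.13, adjusted p = 1.15e-09). Slc25a31, the germ cell ADP/ATP carrier Ant4, had 5.32 and 5.51 on day 18, against 3.48 and 3.33 on day 15, and differed by 2.01 (SE 0.15, adjusted p = 8.4e-08). Tuba3a, a testis alpha-tubulin, had 8.64 and 8.72 on day 18, against 6.71 and 6.87 on day 15, and differed by 1.89 (SE 0.12, adjusted p = 2.32e-08). Its near-identical copy Tuba3b averaged 6.10 on day 18, against 3.74 on day 15, and probes of such copies can share signal. Rpl10l, a retrogene copy of a ribosomal protein gene, had 6.87 and 7.37 on day 18, against 5.61 and 6.13 on day 15, and differed by 1.25 (SE 0.19, adjusted p = 0.000107). The Rpl10l call depends on single arrays: the difference was 0.99 without the first day 15 array or without the second day 18 array. Taf7l, a germ cell paralog of a general transcription factor subunit, had 5.08 and 5.09 on day 18, against 3.94 and 3.88 on day 15, and differed by 1.17 (SE 0.11, adjusted p = 1.07e-06) under background. Dpep3, Brdt and Tex101 differed by 0.77, 0.51 and 0.30, and Dkkl1 by -0.43. The probe sets of Brdt, a bromodomain protein of the testis, disagreed: the dimmer one averaged 5.80 on day 18, against 4.43 on day 15.

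**Figure D3:**
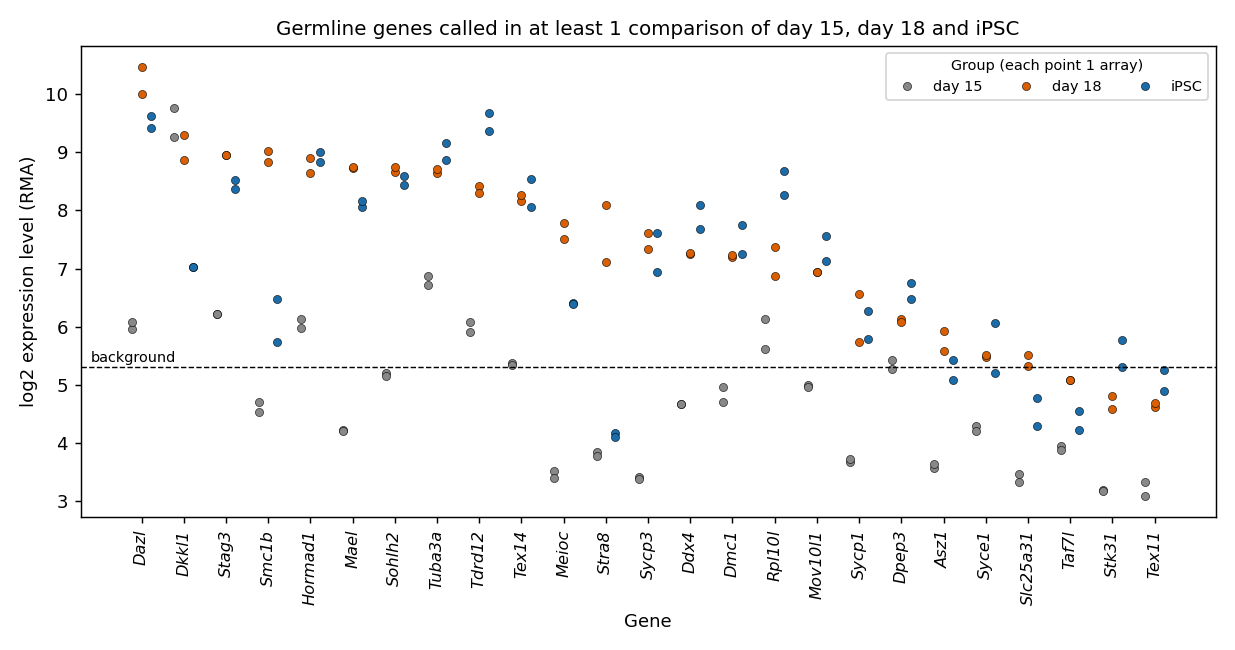
Log2 level (RMA scale) of the 25 germline genes called in at least 1 of the comparisons among day 15, day 18 and iPSC, with a point for each array, coloured by group, and a dashed line at background (5.31). For the 23 genes called between day 18 and day 15 the day 18 points lie above the day 15 points, while the iPSC points of Stra8, Smc1b and Dkkl1 lie far below those of day 18.

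The promoters of the 6 genes with the largest measured differences between day 18 and day 15, lower bounds except for Dazl and so in no set order, are shown because the repressor that acts on germline genes in stem cells binds DNA through E2f6 and through Mga with Max. The motifs searched were TCCCGC with its reverse complement GCGGGA, the E2F6 motif, and the palindrome CACGTG, the E-box that Mga with Max binds. The matches in these sequences do not overlap. The sequences are from RefSeq on GRCm38.p6, each the 250 bases before the annotated start on the gene's own strand, with matches in capitals.
Mael: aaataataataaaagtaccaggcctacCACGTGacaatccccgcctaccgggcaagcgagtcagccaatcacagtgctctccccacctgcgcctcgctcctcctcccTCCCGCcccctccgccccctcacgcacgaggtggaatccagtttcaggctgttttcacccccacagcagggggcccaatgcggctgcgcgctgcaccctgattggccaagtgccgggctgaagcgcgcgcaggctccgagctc
Sycp3: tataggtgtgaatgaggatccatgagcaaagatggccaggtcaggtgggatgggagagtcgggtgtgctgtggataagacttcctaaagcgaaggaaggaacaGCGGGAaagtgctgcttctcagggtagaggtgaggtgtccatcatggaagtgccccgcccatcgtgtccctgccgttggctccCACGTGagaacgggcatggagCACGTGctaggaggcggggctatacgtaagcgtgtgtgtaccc
Smc1b: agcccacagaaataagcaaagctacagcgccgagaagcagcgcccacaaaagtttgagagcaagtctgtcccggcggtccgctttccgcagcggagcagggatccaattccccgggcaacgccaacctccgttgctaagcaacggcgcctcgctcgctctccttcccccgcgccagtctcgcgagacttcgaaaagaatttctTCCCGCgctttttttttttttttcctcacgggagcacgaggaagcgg
Meioc: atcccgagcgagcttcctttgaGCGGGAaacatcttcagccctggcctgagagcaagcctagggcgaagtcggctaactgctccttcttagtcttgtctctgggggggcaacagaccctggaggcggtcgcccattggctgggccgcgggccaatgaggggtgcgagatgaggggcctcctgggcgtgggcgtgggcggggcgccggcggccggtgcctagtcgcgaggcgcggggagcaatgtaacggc
Dazl: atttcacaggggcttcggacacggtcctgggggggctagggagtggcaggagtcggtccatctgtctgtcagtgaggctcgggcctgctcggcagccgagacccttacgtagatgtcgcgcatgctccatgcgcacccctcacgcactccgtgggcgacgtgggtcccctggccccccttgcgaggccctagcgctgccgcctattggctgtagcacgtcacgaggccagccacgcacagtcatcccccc
Stra8: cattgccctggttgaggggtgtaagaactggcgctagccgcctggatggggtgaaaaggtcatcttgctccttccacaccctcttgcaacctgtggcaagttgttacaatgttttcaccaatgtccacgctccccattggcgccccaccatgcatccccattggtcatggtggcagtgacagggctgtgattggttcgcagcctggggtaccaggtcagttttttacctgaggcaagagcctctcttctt
They lie at chr1:166238745-166238994 on the minus strand for Mael, chr10:88459337-88459586 on the plus strand for Sycp3, chr15:85131958-85132207 on the minus strand for Smc1b, chr11:102665335-102665584 on the plus strand for Meioc, chr17:50293621-50293870 on the minus strand for Dazl and chr6:34920698-34920947 on the plus strand for Stra8. Mael and Sycp3 hold both motifs, with the E2F6 motif 143 and 147 bases before the start and, in Sycp3, a pair of E-boxes nearer to it. Smc1b and Meioc hold the E2F6 motif alone, 47 and 228 bases before it. Dazl and Stra8 hold neither in this stretch, and differ in CpG count, with 20 in Dazl and 5 in Stra8.

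Over the windows of 250 bases before to 50 after the start, which the table held for 36 of the 40 genes, the E2F6 motif was in 17 (47.2%), against 22% of 27025 mouse genes. The E-box was in 14 (38.9%), against 8.1% of those 27025 genes, and both were in 8 (22.2%), against 2.6%. The 27025 are all genes with a window, whether or not the arrays measured them. The 8 genes with both were Ddx4, Hormad1, Mael, Slc25a31, Stag3, Syce2, Sycp1 and Sycp3, of which all but Syce2 were called higher on day 18 than on day 15. Of the 22 genes called higher on day 18 that had a window, 13 (59.1%) held the E2F6 motif and 10 (45.5%) the E-box. Of the 14 other genes with a window, 4 (28.6%) held each. The median number of CpG per window was 19.5 in the germline genes and 7 in the 27025 genes. Both motifs hold a CpG themselves, and the motif shares were not compared at a like number of CpG. A match is a description of the letters and not a binding site, and these shares were not tested.

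The question of the next comparison is whether the stable iPSC line, kept with 2i, differed from the cells that had just lost the additives. With the limit on size 6 of the 40 genes were called, 2 higher and 4 lower in iPSC, where 1.57% of all genes were called higher and 2.84% lower. The median difference of the 40 genes was -0.04, against 0.05 over all genes. Of the 23 genes called higher on day 18, 2 were called higher again in iPSC, 3 lower and 18 neither way. These 23 were picked for high values on the day 18 arrays, which this comparison uses again. The split is thus biased toward lower values in iPSC. Of those 18, 11 passed the adjusted p and missed only the limit on size, in both directions, among them Stk31 at 0.84, Ddx4 at 0.63, Slc25a31 at -0.88 and Mael at -0.63. On the adjusted p alone 22 of the 40 genes and 37.1% of all genes passed. For 32 of the 34 genes not called, the 95% interval of the difference lay within 1 log2 of 0, the exceptions being Stk31 and Slc25a31. Among the genes that did not pass the adjusted p, Sycp3 differed by -0.21 (95% interval -0.56 to 0.15), Hormad1 by 0.14 (-0.17 to 0.46) and Tex14 by 0.08 (-0.19 to 0.36). Dazl was slightly lower in iPSC, with 9.42 and 9.63 on the iPSC arrays, against 10.00 and 10.46 on day 18, a difference of -0.71 (-0.97 to -0.44) under the limit on size.

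The genes lower in iPSC were Stra8, Smc1b, Dkkl1 and Meioc. Stra8 had 4.17 and 4.11 on the iPSC arrays, against 7.11 and 8.10 on day 18, and differed by -3.46 (SE 0.21, adjusted p = 2.92e-08). Stra8 was thus under background in iPSC, near its day 15 level of 3.81. Smc1b had 5.74 and 6.47 in iPSC, against 8.83 and 9.02 on day 18, and differed by -2.82 (SE 0.17, adjusted p = 2.86e-08), while remaining over background. Meioc had 6.41 and 6.40 in iPSC, against 7.51 and 7.78 on day 18, and differed by -1.24 (SE 0.09, adjusted p = 1.36e-07). Dkkl1 had 7.02 and 7.03 in iPSC, against 8.86 and 9.29 on day 18, and differed by -2.05 (SE 0.18, adjusted p = 9.73e-07). Dkkl1, the first gene called higher during induction, was the gene called lower in iPSC than on day 15. The iPSC and day 18 arrays of these 4 genes did not overlap. Over the same comparison 5 of 10 trophoblast markers were called lower in iPSC and 0 higher, with summed linear levels of 692 to 693 in iPSC, against 3240 to 4290 on day 18; on day 15 they were 2910 to 2920. Of the 15 gonadal somatic markers 2 were called lower in iPSC, Cyp11a1 at -2.72 and Cyp17a1 at -1.10. Of 12 fibroblast markers 6 were called higher and 3 lower in iPSC than on day 18. Their summed linear level was 11400 to 12800 in iPSC, against 4460 to 7300 on day 18. The part of these cells in the 4 genes was not tested.

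The genes higher in iPSC than on day 18 were Tdrd12 and Rpl10l. Tdrd12 had 9.37 and 9.68 on the iPSC arrays, against 8.43 and 8.30 on day 18, and differed by 1.16 (SE 0.13, adjusted p = 1.13e-05). Its group means were 3.92, 6.06 and 8.36 on days 0, 11 and 18, and 9.53 in iPSC. Rpl10l had 8.67 and 8.26 in iPSC, against 6.87 and 7.37 on day 18, and differed by 1.35 (SE 0.19, adjusted p = 9.68e-05). Both iPSC arrays were above both day 18 arrays.

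**Figure D4:**
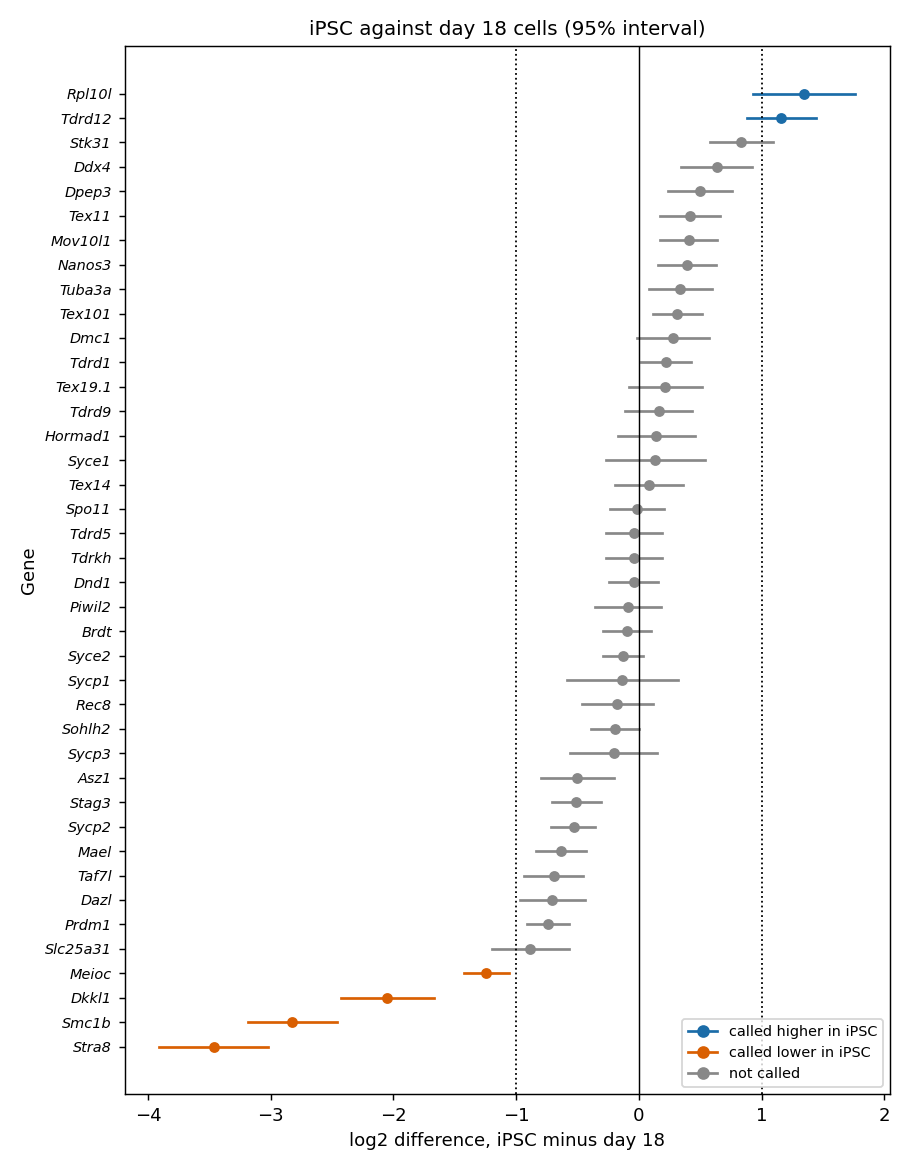
Log2 difference of iPSC minus day 18 for each of the 40 genes, as a point with its 95% interval, coloured by whether the gene was called, with dotted lines at the limit on size. Stra8 and Smc1b, with differences of -3.46 and -2.82 in iPSC, and Dkkl1 stand apart from genes such as Sycp3 and Tex14, whose intervals hold 0.

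Set against day 15, the last day with the additives, iPSC had 22 genes called higher and 1 lower, where 5.52% of all genes were called higher and 5.48% lower. The median difference was 1.33, against -0.02 over all genes. Of the 23 genes called higher on day 18, 21 were also called higher in iPSC; the 2 others were Stra8, at 0.33, and Taf7l, at 0.48. Dpep3, a dipeptidase of testis germ cells, was called against day 15 in iPSC and not on day 18, with 6.48 and 6.75 on the iPSC arrays, against 5.27 and 5.43 on day 15, a difference of 1.27 (SE 0.12, adjusted p = 9.94e-07). Its difference between iPSC and day 18 was 0.50 and was not called. The calls of Syce1, at 1.39, and Slc25a31, at 1.13, depended on the second iPSC array, without which the differences were 0.96 and 0.89. By role, 4 of 7 identity genes, 4 of 10 piRNA genes, 7 of 10 axis and synaptonemal genes, 2 of 4 entry and recombination genes and 5 of 9 testis-restricted genes were called higher in iPSC than on day 15. The comparisons of day 18 and of iPSC with day 15 share the day 15 arrays, so their values are not independent.

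Among the identity genes, Dazl differed from day 15 by 3.51 (SE 0.12, adjusted p = 4.93e-11). Sohlh2 had 8.43 and 8.58 on the iPSC arrays, against 5.20 and 5.15 on day 15, and differed by 3.33 (SE 0.09, adjusted p = 8.12e-12). Ddx4 had 7.69 and 8.09 in iPSC, against 4.68 and 4.68 on day 15, and differed by 3.21 (SE 0.13, adjusted p = 2.55e-10). Both iPSC arrays of Ddx4 lay above both of its day 18 arrays. Stk31 had 5.30 and 5.78 in iPSC, against 3.19 and 3.17 on day 15, and differed by 2.36 (SE 0.12, adjusted p = 1.58e-09). Of the piRNA genes, Mael had 8.05 and 8.16 in iPSC, against 4.22 and 4.20 on day 15, and differed by 3.90 (SE 0.10, adjusted p = 3.84e-12). It lay a little under its day 18 arrays. Tdrd12 differed from day 15 by 3.53 (SE 0.13, adjusted p = 8.74e-11). Mov10l1 had 7.14 and 7.56 in iPSC, against 5.00 and 4.96 on day 15, and differed by 2.37 (SE 0.11, adjusted p = 6.09e-10). Asz1 had 5.08 and 5.42 in iPSC, against 3.57 and 3.63 on day 15, and differed by 1.65 (SE 0.14, adjusted p = 2.36e-07), with a mean under background in both groups.

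In the synaptonemal complex and axis, Sycp3 had 6.93 and 7.60 on the iPSC arrays, against 3.41 and 3.39 on day 15, and differed by 3.87 (SE 0.16, adjusted p = 3.22e-10). Hormad1 had 8.83 and 9.01 in iPSC, against 5.97 and 6.13 on day 15, and differed by 2.87 (SE 0.15, adjusted p = 1.68e-09). Sycp1 had 5.78 and 6.26 in iPSC, against 3.68 and 3.73 on day 15, and differed by 2.32 (SE 0.21, adjusted p = 5.64e-07). The iPSC and day 18 arrays of these 3 genes overlapped. Stag3 had 8.37 and 8.52 in iPSC, against 6.23 and 6.21 on day 15, and differed by 2.23 (SE 0.09, adjusted p = 2.43e-10). Smc1b, its partner in cohesin, differed from day 15 by 1.49 (SE 0.17, adjusted p = 4.76e-06), so that both cohesin subunits stayed over their day 15 level while Smc1b lay far under day 18. Syce1 had 5.20 and 6.06 in iPSC, against 4.29 and 4.20 on day 15, and differed by 1.39 (SE 0.19, adjusted p = 2.6e-05). Its iPSC arrays were the farthest apart of all 40 genes in that group, by 0.86. Tex11 had 4.89 and 5.25 in iPSC, against 3.33 and 3.09 on day 15, and differed by 1.86 (SE 0.11, adjusted p = 9.54e-09), under background.

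Dmc1 had 7.25 and 7.76 on the iPSC arrays, against 4.96 and 4.70 on day 15, and differed by 2.67 (SE 0.14, adjusted p = 1.91e-09). Meioc differed from day 15 by 2.95 (SE 0.09, adjusted p = 1.14e-11), between its day 15 and day 18 levels. Of the testis-restricted genes, Tex14 had 8.05 and 8.54 in iPSC, against 5.37 and 5.34 on day 15, and differed by 2.94 (SE 0.13, adjusted p = 4.07e-10). Rpl10l differed from day 15 by 2.59 (SE 0.19, adjusted p = 8.03e-08). The iPSC arrays of Tex14 overlapped those of day 18, and those of Rpl10l lay above them. Tuba3a had 8.87 and 9.16 in iPSC, against 6.71 and 6.87 on day 15, and differed by 2.22 (SE 0.12, adjusted p = 2.96e-09). Slc25a31 had 4.29 and 4.78 in iPSC, against 3.48 and 3.33 on day 15, and differed by 1.13 (SE 0.15, adjusted p = 1.75e-05), with all 4 arrays under background. Taf7l, which was not called, had 4.22 and 4.56 in iPSC, also under background. Dkkl1, with a difference of -2.48 (SE 0.18, adjusted p = 4.51e-08), was over background in both groups.

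Other genes of these pathways, from lists chosen by function, were also compared between day 18 and day 15. Of all genes, 4.67% were called higher and 4.07% lower there. Of 18 further piRNA pathway genes 5 were called higher on day 18 and 0 lower, with a median difference of 0.50. Rnf17, a Tudor-domain protein of germ cells, differed by 3.57, Gpat2 by 2.32 and Fkbp6 by 1.62. Of 29 further genes of synapsis and recombination 8 were called higher and 0 lower, with a median of 0.39. They included Hsf2bp at 3.31, Hormad2 at 3.14, 4930447C04Rik (also named Six6os1) at 3.00 and Rec114 at 1.96. Of 25 genes of primordial germ cells and gonial stem cells 17 were called higher and 1 lower, with a median of 1.43. Dppa2 differed by 3.20, Dmrt1 by 2.82, Tcl1 by 2.82 and Ifitm1 by 2.71, and Id4 by -1.06. Several genes of that list, Dppa2 and Tcl1 among them, are also genes of pluripotent cells.

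Of 22 genes of spermatids and sperm 0 were called by limma in either direction on day 18 against day 15, with a median of -0.03. Of all genes, 4.67% were called higher and 4.07% lower, so 0 of 22 lies near those shares. At an unadjusted p under 0.05 in limma 3 passed, where 52% of all genes did, and 15 of the 22 were under background on both days. Ldhc averaged 5.68 on day 18, against 4.77 on day 15, under the limit on size. Against day 0, 2 of the 22 were called higher on day 18 (8.87% of all genes). In iPSC 1 was called higher than on day 15 (5.52% of all genes), with both means under background. Of 21 oocyte genes 3 were called higher and 0 lower, namely Ooep at 3.22, Khdc3 at 1.46 and Tle6 at 1.32, with a median of -0.05. Of all genes, 2.84% were called lower and 1.57% higher in iPSC than on day 18. In iPSC against day 18, 4 genes of the primordial germ cell list were called lower and 1 higher. These were the X-linked homeobox genes Rhox9 at -4.22 and Rhox6 at -3.39, with Dmrt1 at -1.44 and Utf1 at -1.34, while Tcl1 was higher by 1.41. Rhox9 averaged 6.26 in iPSC, against 10.48 on day 18. The further piRNA genes had 1 called higher and 1 lower in iPSC against day 18, and the synapsis and recombination genes 1 higher and 1 lower.

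Of 26 repressors of germline genes and regulators of DNA methylation 2 were called higher and 1 lower on day 18 than on day 15, with a median difference of 0.08. These counts are near the shares of all genes, 4.67% higher and 4.07% lower. Dnmt3l, the cofactor of the de novo methyltransferases, differed by 1.95, the 5-methylcytosine oxidase Tet1 by 1.53 and its relative Tet3 by -1.45. At an unadjusted p under 0.05 in limma, without a limit on size or direction, 21 of the 26 genes passed, where 52% of all genes did. The members of the E2f6, Mga and Max complex were not called. E2f6, Mga and Max differed by less than the limit on size. Their day 15 and day 18 arrays did not overlap, but this held for most of the list. Of the 26 genes, 13 had both day 18 arrays above both day 15 arrays, and 12 had both below. E2f6 averaged 7.80 on day 18, against 8.02 on day 15. Mga averaged 10.29 on day 18, against 9.57 on day 15, and Max 9.84 on day 18, against 10.50 on day 15. The maintenance methyltransferase Dnmt1 averaged 10.32 on day 18, against 10.58 on day 15. In iPSC 2 genes of this list were called lower than on day 18, Dnmt3b at -1.33 and Dnmt3a at -1.10, and 0 were called higher.

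**Figure D5:**
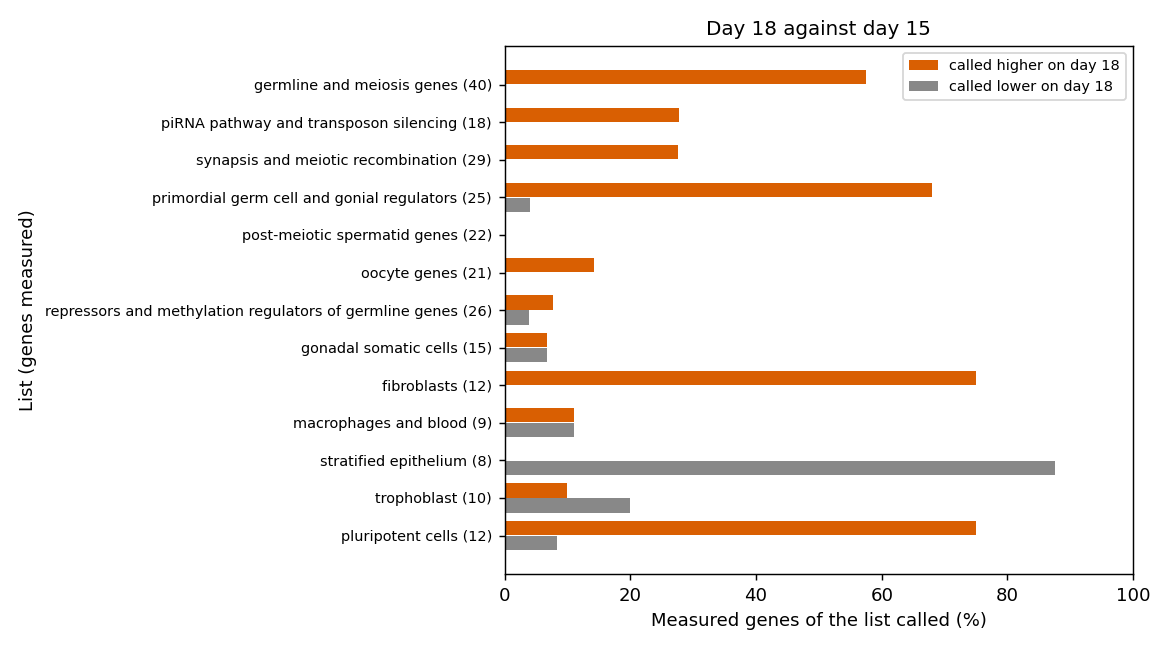
Share (%) of the measured genes of each list that were called higher (orange bars) or lower (grey bars) on day 18 than on day 15, for the germline genes, the pathway lists and the cell type marker lists. The bars are the counts in the text, such as 23 of 40 germline genes and 17 of 25 genes of primordial germ cells called higher, and 7 of 8 markers of stratified epithelium called lower.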

How the data were processed

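The 18 arrays were Affymetrix arrays of total RNA. The authors deposited log2 values, for which the submitters' processing notes name RMA. The version of RMA, the chip definition and the build were not given in the sources used here. RMA sets the arrays to nearly the same distribution, so a shift of most genes would not show. Of 29643 probe sets named by RefSeq accession, 27260 matched 1 symbol of the RefSeq table of GRCm38.p6, used for names, and 2383 matched none, which gave 20233 genes. Array medians were 6.69 to 6.89, and the number of arrays limits the precision.

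A mean for each of the 9 groups was fitted to all arrays with limma (version 3.58.1, R 4.3.3), which pools 1 spread per gene (9 residual degrees of freedom), with Benjamini-Hochberg adjustment within each comparison over all genes. SEs are from this model. Summed linear levels of a marker list are 2 to the power of each gene's level, summed on an array. In a simulation of the comparison of day 18 with day 15 over 20233 genes, 99 of 100 genes changed by 1.5 log2 and 100 of 100 changed by 3 were called, with 0 unchanged genes called; the simulated noise was independent between genes. The members and lists were chosen with earlier results of these data known. Members called among day 15, day 18 and iPSC are given on every array, the others by level or difference; of each list at most the 4 called genes with the largest differences are named. The alternatives were a smaller and a larger limit on size, a filter at background, quantile normalization again, centring, the mean of probe sets, array weights, a trended robust fit, the compared groups alone, the replicate number as a block and leaving out each array. Promoter windows were held for 36 genes; Dnd1, Piwil2, Tex11 and Spo11 had none.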

Additional observations from a re-analysis of the deposited data

How the results depend on the processing

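The counts of germline genes called between day 18 and day 15 (23), iPSC and day 18 (6) and iPSC and day 15 (23) were the same with array weights, a trended robust fit, a second quantile normalization, centring, the mean of probe sets and the compared groups alone. Testing only genes over background in a group gave 21, 6 and 22, since members never over it are left out. Leaving out 1 array at a time gave 22 to 24, 6 to 7 and 21 to 23; an arm left with 1 array is assumed to vary like the other groups. Against day 0 it gave 0 to 1 genes for day 7, 4 to 5 for day 11, 8 for day 15, 31 for day 18 and 28 to 29 for iPSC, and 1 to 2 for day 15 against day 11. The limit on size moved most counts. With none, 9 genes passed on day 1, 11 on day 3, 12 each on days 5 and 7, 14 on day 11 and 22 on day 15 against day 0, where the limit left 1, 1, 0, 1, 4 and 9 and where 50%, 58.1%, 59.9%, 57.5%, 56.4% and 56.3% of all genes passed with none. It also gave 10 genes for day 15 against day 11 (1 with the limit), 22 for iPSC against day 18 and 35 for iPSC against day 15, where 16.2%, 37.1% and 46.7% of all genes passed, and 34 for day 18 against day 15. With a limit of 2 the counts were 0 on days 1, 3 and 7, 2 and 4 on days 11 and 15, 20 on day 18 and 18 in the iPSC line against day 0, 16 for day 18 against day 15, and 3 for iPSC against day 18. The shares of all genes at a limit of 2 are not given here, so these counts show only how the limit moves them. With a second quantile normalization 0 genes were called on day 1. No direction turned. Single calls that fell under the limit without 1 array were those of Dkkl1 on day 7 (0.98) and Prdm1 and Hormad1 on day 15 against day 0, Rpl10l on day 18 against day 15, and Syce1 and Slc25a31 in iPSC against day 15, the others with values given above.

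Same-numbered replicates showed no common deviation. Over 36 pairs of groups the correlation of the differences between arrays was -0.189 to 0.149, with 6 over 0.1 and 7 under -0.1. Such correlations cannot exclude a small shared effect, and the labels do not say whether the numbers pair the samples. With the replicate number as a block the counts were 23, 6 and 23 for the 3 comparisons. Over all genes, day 18 against day 15 had 3994 higher and 5461 lower with no limit on size (46.7%), against 945 and 824 with it.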
